A study of Mus musculus with 6 samples.

Results

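The constitutive proteasome subunit genes were examined in sorted DN3 thymocytes of miR-185 transgenic and wild-type mice. Members were set by a naming rule, which was chosen with earlier results of these data known. The rule took every array probe whose target name begins with Psma, Psmb, Psmc or Psmd followed by a digit. It left out the immunoproteasome genes Psmb8, Psmb9 and Psmb10 and the thymoproteasome gene Psmb11. This gave 64 of 45281 probes and 36 of 30774 gene names on the array. Of the 36 genes, 15 encode subunits of the core particle (Psma and Psmb) and 17 encode subunits of the regulatory particle (Psmc and Psmd). Of the remaining genes, 3 (Psmd5, Psmd9 and Psmd10) encode chaperones that assemble the base of the regulatory particle. The last, Psmc3ip, matches by name, but its product acts in meiotic recombination and is not a proteasome subunit.

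The tested samples were 3 arrays of DN3 cells from miR-185 Tg mice, set against 3 arrays of DN3 cells from wild-type (WT) mice, all on the C57BL/6 strain. DN3 cells are immature thymocytes without CD4 and CD8 that express CD25 and are at the checkpoint for the T cell receptor beta chain. They were sorted by their surface markers, and RNA was measured on Illumina MouseWG-6 BeadChip arrays, 6 arrays on 1 slide. The promoter that drives the transgene, the ages of the mice and whether each sample came from a separate mouse are not stated in the labels. The p-values therefore cover variation among these arrays, whether biological or technical.

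The proteasome is the main protease of the cytosol and nucleus and destroys proteins tagged with ubiquitin. Its core particle is a barrel of alpha rings, which gate the entrance, and beta rings, which hold the peptidases. The regulatory particle caps the barrel: the ATPases and scaffold subunits of its base unfold the substrate, and its lid removes the ubiquitin chain. In T cells proteasomes also cut peptides for MHC class I, and interferon induces the immunoproteasome subunits, which replace the constitutive peptidases.

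Each array had 17879 to 18913 of 45281 probes detected and a median of 41 to 42 beads per probe. All 7 DN3 markers checked were detected, and their summed signal was 40222 to 48328 on Tg arrays and 31042 to 33665 on WT arrays, without overlap. Of the 7, Il2ra (CD25, a marker of the sort) and Dtx1 (a Notch target) rose in Tg cells, by 1.54 and 2.54 on the log2 scale (adjusted p = 0.016 for each, limma). Cd3e and Thy1 had higher values on each Tg array than on each WT array, with differences of 0.57 and 0.32 that did not pass, and Ptcra, Notch1 and Rag1 overlapped between groups, with 0.52, 0.35 and -0.64. The part of this shift in the proteasome differences was not tested. The NK cell markers Klrb1c, Ncr1 and Klrd1, the myeloid surface markers Itgam and Itgax and the thymic epithelial genes Psmb11, Foxn1, Krt5 and Epcam were not detected on any array. Tg 2 stood apart from the other arrays on the first principal component (44% of the variance), while WT 2 and WT 3 lay closest together (r = 0.996 across probes, which are not independent replicates). The summed signal of the red blood cell list (4 genes) ran from 1014 to 2133 on Tg arrays and from 440 to 14971 on WT arrays. Its part in the results was not tested. RNA was measured per array and not per cell, so a lower value may reflect fewer cells of a type or less RNA per cell, which cannot be told apart.

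Of the 64 member probes, 52 were detected on at least 3 of the 6 arrays (detection p under 0.05, whatever the group) and were tested, 49 of them detected on all 6 arrays. They represent 31 of the 36 genes. The other 12 probes, of which 9 were not detected on any array, include every member probe of Psma1, Psma3, Psma6, Psma8 and Psmd3, so these 5 genes have no value here. Psma8 encodes an alpha subunit made in the testis. A probe listed under an older name of Psma8, and therefore outside the naming rule, was detected on 2 Tg and 3 WT arrays and had a log2 difference of -0.43, which did not pass (adjusted p = 0.31, limma over all probes). For each tested probe of a member, the bead-to-bead standard error was 1.67% to 8.67% of its intensity on 1 array.

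Between miR-185 Tg and WT DN3 cells, of the 31 proteasome genes measured, 1 fell and 0 rose, by limma on log2 intensities with a Benjamini-Hochberg adjusted p under 0.05 over all 12426 genes tested. The gene that fell was Psmd2, which encodes a large scaffold subunit of the base. At an unadjusted p under 0.05 the members numbered 3 lower (Psmd2, Psmd13 and Psmc4) and 0 higher, against 8.89% of all genes lower and 11.1% higher. Among all genes tested, 1.68% were called lower in Tg cells, 2.55% higher and 4.23% in either direction, so 1 call among 31 members lies near the background. The median log2 difference (Tg minus WT) of the members was -0.13, against -0.0014 over all genes tested, and 22 of the 31 were negative, against 50.1% of all genes.

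The medians of the core and of the regulatory particle had opposite signs. The 16 measured regulatory subunit genes had a median log2 difference of -0.29, and 15 of them were negative. The 11 measured core genes had a median of 0.09, and 7 of them were positive. The core was not uniform. Its 4 measured alpha genes had a median of -0.06, with 3 negative, and another 4 alpha genes had no value. Its 7 beta genes had a median of 0.12, with 6 positive. All 3 Tg values lay below all 3 WT values in 6 of the 16 regulatory genes (37.5%) and in 0 of the 11 core genes, against 13.2% of all genes tested. All 3 Tg values lay above the WT values in 0 genes of either particle, against 14.9% of all genes. Over all 31 members the groups did not overlap for 7 lower and 1 higher genes, against 28.2% of all genes in either direction. The members were chosen with earlier results of these data known, and no test of the difference between the particles was made.

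**Figure D1:**
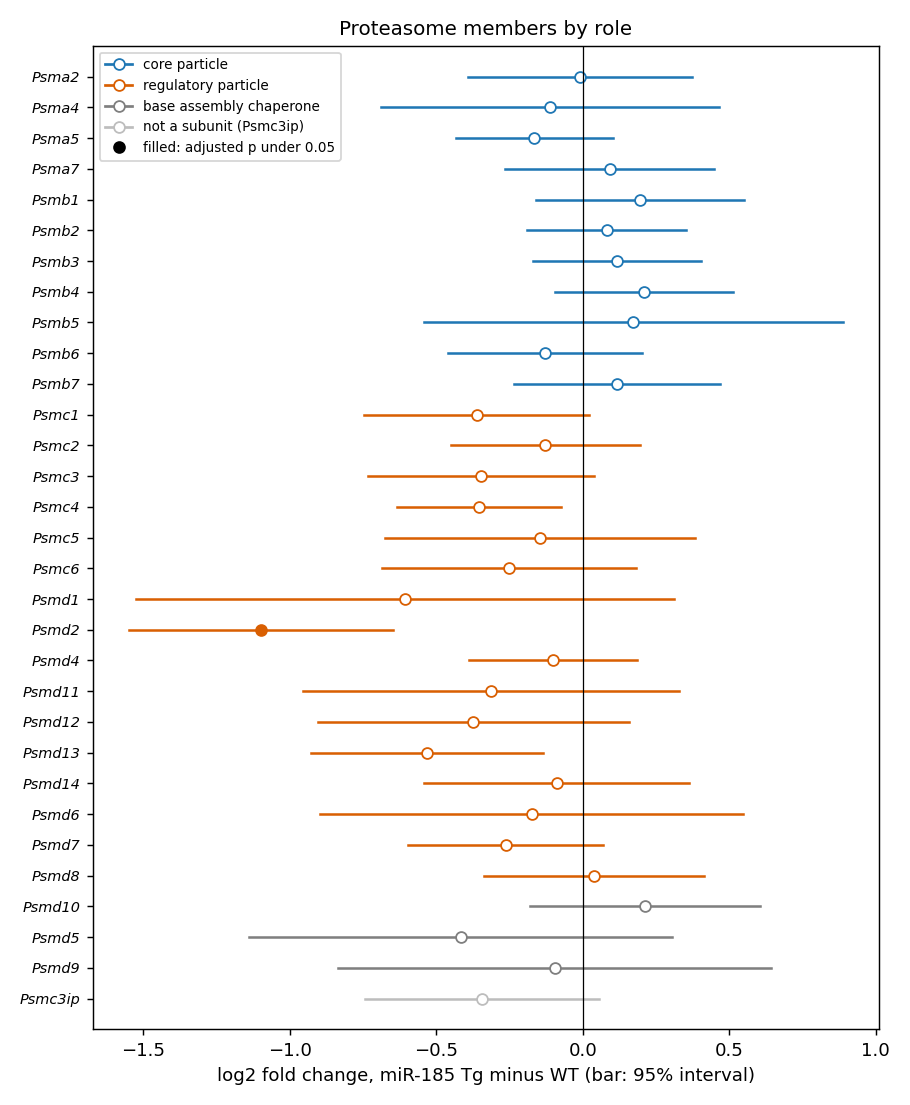
Log2 fold change (miR-185 Tg minus WT) of the 31 measured proteasome members, grouped by role from alpha subunits at the top to Psmc3ip at the bottom, with 95% intervals from limma; the filled point is the gene with an adjusted p under 0.05. Regulatory subunits (orange) lie to the left of 0 except Psmd8, and core subunits (blue) lie on both sides.

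The same values were also read array by array, with each gene centred on its mean over the 6 arrays. Centring gives a gene's Tg and WT means opposite signs. These levels therefore restate the differences above, and add only how they spread over the arrays. The median centred level of the regulatory genes was -0.08, -0.30 and -0.07 on Tg 1, Tg 2 and Tg 3, and 0.28, 0.09 and 0.11 on WT 1, WT 2 and WT 3. For the core genes it was -0.01, -0.06 and 0.09 on Tg 1, Tg 2 and Tg 3, and 0.06, -0.10 and -0.08 on WT 1, WT 2 and WT 3. Regulatory levels were thus below 0 on every Tg array and above 0 on every WT array, highest in WT 1 and lowest in Tg 2, while the core levels of the groups overlapped. The regulatory level minus the core level was -0.07, -0.24 and -0.15 on the Tg arrays and 0.22, 0.18 and 0.19 on the WT arrays, which did not overlap. Among the 16 regulatory genes, the lowest array was Tg 2 for 10, Tg 1 for 5 and Tg 3 for 1, and it was a WT array for 0. Among all genes tested Tg 2 was the lowest array for 28.6%. With Tg 2 left out, the regulatory median was -0.21 and 14 of the 16 genes were negative. With each array left out in turn, the regulatory median ran from -0.33 to -0.21 and the core median from -0.01 to 0.15.

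**Figure D2:**
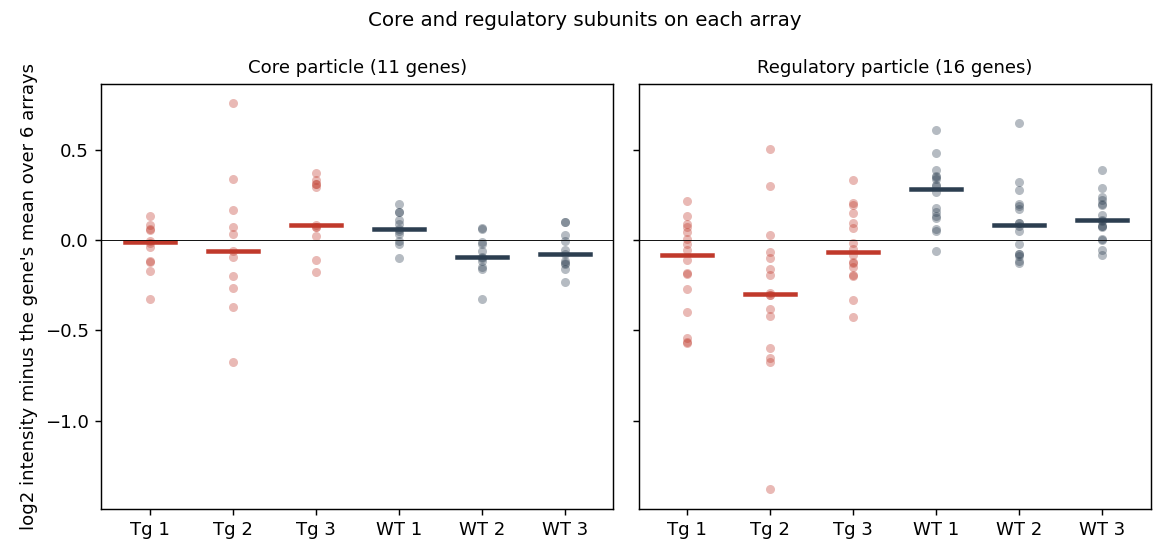
Log2 intensity minus the gene's mean over the 6 arrays (vertical axis) on each array, for the 11 core genes (left) and the 16 regulatory genes (right), with 1 point per gene and the median as a bar; Tg arrays are red and WT arrays dark. The regulatory medians lie at -0.30 to -0.07 on Tg arrays and at 0.09 to 0.28 on WT arrays, while the core medians of the groups overlap.

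Members of the base of the regulatory particle included the gene that fell. Psmd2 had log2 intensities of 5.48, 5.35 and 5.60 in Tg 1, Tg 2 and Tg 3, and of 6.64, 6.68 and 6.42 in WT 1, WT 2 and WT 3. Every Tg value was below every WT value. The log2 difference was -1.10 ± 0.20 (SE), or 2.14-fold lower in Tg cells, with a 95% interval from -1.55 to -0.65 (adjusted p = 0.026, limma). An exact two-sided permutation test of 3 arrays against 3 gave p = 0.1, the smallest p it allows.

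The Psmd2 probe was dim. Before background correction its intensity was 135.4, 126.7 and 126.0 on the Tg arrays and 197.1, 182.4 and 167.0 on the WT arrays, while the median probe of an array had 100.9 to 110.6. The size of the difference depended on the background correction, at -0.48 without it (adjusted p = 0.024, limma). It was -0.37 in the authors' deposited gene values, which were not corrected here and also average the probes of a gene (adjusted p = 0.031, limma). The other tested Psmd2 probe was also lower in Tg cells, by a log2 difference of -0.64 ± 0.23 (SE), but was detected on 1 of the 3 Tg arrays and missed the threshold (limma over all probes, adjusted p = 0.19). The call of Psmd2 was lost without Tg 1 (adjusted p = 0.0919, limma), without WT 1 (0.12), without WT 2 (0.14) and without WT 3 (0.13), where the log2 difference was -1.18 to -1.05, and with WT 2 and WT 3 averaged as 1 sample (0.13).

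Psmd1, the other large scaffold of the base, had log2 intensities of 12.80, 11.29 and 13.00 in Tg 1, Tg 2 and Tg 3, and of 13.01, 12.94 and 12.95 in WT 1, WT 2 and WT 3. Tg 2 was low, and the other 5 arrays lay close together. The log2 difference was -0.61 ± 0.40 (SE; adjusted p = 0.46, limma), and it was -0.07 without Tg 2. All 3 Psmd1 probes gave differences between -0.64 and -0.61. Psmd4, a ubiquitin receptor of the base, had a difference of -0.10 ± 0.12 (SE).

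The ATPases of the base, which unfold substrates and open the gate of the core, all had negative differences, and 0 of 6 passed in limma, with 1 at an unadjusted p under 0.05. Psmc4 had log2 intensities of 11.80, 12.01 and 11.88 in Tg 1, Tg 2 and Tg 3, and of 12.23, 12.25 and 12.28 in WT 1, WT 2 and WT 3. The WT values lay close together and above each Tg value, with a log2 difference of -0.35 ± 0.12 (SE; adjusted p = 0.15, limma). Without Tg 2 the adjusted p of Psmc4 was 0.038 (limma). In that fit 1709 of all 12426 genes were called, against 526 with all 6 arrays. Psmc1 and Psmc3 had differences of -0.36 and -0.35, also with each Tg value below each WT value (adjusted p = 0.28 and 0.30, limma). Psmc2, Psmc5 and Psmc6 had differences of -0.13, -0.15 and -0.25, and their groups overlapped. Another tested Psmc5 probe had -0.46 ± 0.21 (SE), with each Tg value below each WT value (adjusted p = 0.30, limma over all probes). The tested Psmc6 probe was dim, with 2 of the 3 Tg arrays above the detection limit.

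In the lid, 6 of 7 measured genes had negative differences, and 0 passed in limma, with 1 at an unadjusted p under 0.05. That gene was Psmd13, a structural lid subunit, with log2 intensities of 11.73, 11.32 and 11.91 in Tg 1, Tg 2 and Tg 3, and of 12.27, 12.12 and 12.16 in WT 1, WT 2 and WT 3. The groups did not overlap, and the log2 difference was -0.53 ± 0.17 (SE; 95% interval -0.93 to -0.14; adjusted p = 0.13, limma), or -0.37 without Tg 2. Psmd7, the inactive partner of the lid's deubiquitinase, also had each Tg value below each WT value, with a difference of -0.26 ± 0.14 (SE; adjusted p = 0.36, limma). Psmd14, the deubiquitinase itself, had a difference of -0.09 ± 0.20 (SE; 95% interval -0.54 to 0.36), a fold between 0.687 and 1.29. The structural subunits Psmd11, Psmd12 and Psmd6 had differences of -0.31, -0.37 and -0.17, and Psmd8 had 0.04. Of these, Psmd12 was lowest in Tg 2 and had a difference of -0.14 without that array. Psmd11 had a difference of -0.11 without Tg 1 and of -0.15 without WT 1.

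**Figure D3:**
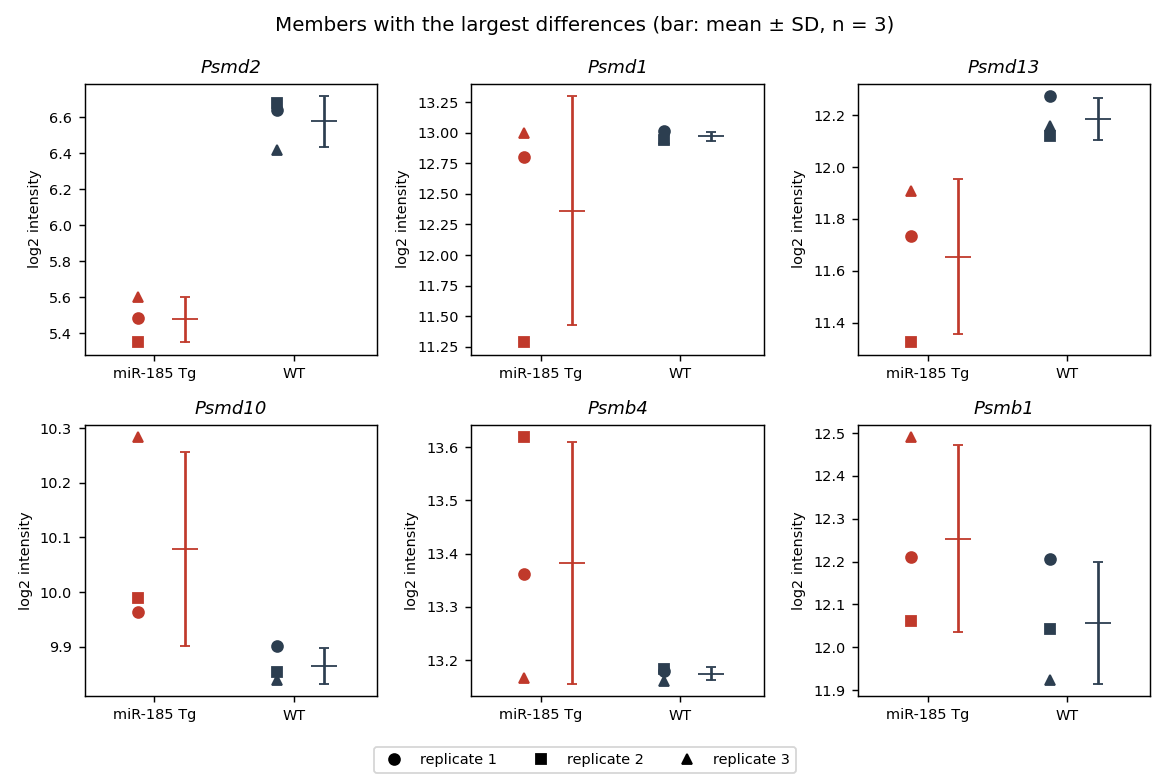
Log2 intensity (vertical axis, a separate scale in each panel) of the 3 members with the most negative and the 3 with the most positive difference, miR-185 Tg left and WT right, with a symbol per replicate and the mean ± SD (n = 3) beside them. The groups do not overlap for Psmd2, Psmd13 and Psmd10, and Tg 2 alone is low for Psmd1.

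The sequences of 250 bases before the RefSeq start of the regulatory genes with the smallest unadjusted p (Psmd2, Psmd13 and Psmc4) and of the core genes with the smallest (Psmb4 and Psma5) are shown because 15 of 16 regulatory genes shared a direction and the core genes lay on both sides of 0. They are from the RefSeq table of GRCm38.p6, 5′ to 3′ on the strand of the gene. Capitals mark each match, on either strand, to any of 4 searched motifs: CCGGAA (the core of ETS factor sites), TGACNNNGC (the element bound by NFE2L1 and NFE2L2), CCAAT (the NF-Y box) and CACGTG (an E box of the kind MYC binds).
Psmd2 (chr16:20651402-20651651, plus strand): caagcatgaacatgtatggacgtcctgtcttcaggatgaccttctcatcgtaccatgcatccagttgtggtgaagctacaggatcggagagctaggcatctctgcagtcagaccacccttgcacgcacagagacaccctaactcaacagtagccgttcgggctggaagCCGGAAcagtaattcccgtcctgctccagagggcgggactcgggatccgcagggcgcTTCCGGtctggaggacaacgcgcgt
Psmd13 (chr7:140882144-140882393, plus strand): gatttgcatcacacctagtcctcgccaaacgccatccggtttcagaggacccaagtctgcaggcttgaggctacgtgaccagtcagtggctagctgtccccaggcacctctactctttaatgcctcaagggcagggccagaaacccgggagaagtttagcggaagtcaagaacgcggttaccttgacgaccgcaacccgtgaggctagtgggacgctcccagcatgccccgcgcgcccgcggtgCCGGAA
Psmc4 (chr7:28050093-28050342, minus strand): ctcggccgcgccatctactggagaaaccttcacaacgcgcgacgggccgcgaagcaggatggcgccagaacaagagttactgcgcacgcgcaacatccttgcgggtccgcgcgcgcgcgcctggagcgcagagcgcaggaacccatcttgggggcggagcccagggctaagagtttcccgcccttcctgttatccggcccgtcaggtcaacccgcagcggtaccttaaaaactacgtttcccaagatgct
Psmb4 (chr3:94886959-94887208, minus strand): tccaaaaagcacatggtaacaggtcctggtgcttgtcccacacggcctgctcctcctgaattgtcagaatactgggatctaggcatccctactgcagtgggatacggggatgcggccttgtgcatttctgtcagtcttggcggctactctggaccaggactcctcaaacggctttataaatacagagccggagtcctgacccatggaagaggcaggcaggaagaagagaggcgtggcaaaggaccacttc
Psma5 (chr3:108256676-108256925, plus strand): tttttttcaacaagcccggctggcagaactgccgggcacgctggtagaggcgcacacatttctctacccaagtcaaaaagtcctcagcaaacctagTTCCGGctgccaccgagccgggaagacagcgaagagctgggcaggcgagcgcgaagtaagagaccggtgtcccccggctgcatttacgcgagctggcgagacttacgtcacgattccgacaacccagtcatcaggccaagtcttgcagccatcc
CCGGAA begins at position -82 from the start of Psmd2 and at -6 in Psmd13. A match on the opposite strand reads TTCCGG in these letters, and TTCCGG begins at -25 in Psmd2 and at -154 in Psma5. CCGGAA was the only one of the 4 motifs with a match in these 5 sequences, so matches of different motifs do not overlap there. Psmc4 and Psmb4 have no match to the 4 motifs in these letters.

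Promoter windows of 300 bases (250 before and 50 after the start) were listed for 29 of the 36 members. CCGGAA was in the windows of 16 of them (55.2%), against 33.1% of the 8048 genes tested on the arrays that have a window and 16.7% of all 27025 genes in the table. It was in 10 of 14 regulatory windows (71.4%) and in 4 of 11 core windows (36.4%). TGACNNNGC was in 5 of the 29 member windows (17.2%), those of Psmb5, Psmb6, Psmc6, Psmd12 and Psmd9, against 16.7% of genes tested. CCAAT was in 12 (41.4%) against 43.5%, and CACGTG in 2 (6.9%) against 11.9%. These shares describe letters in the windows, and no factor's binding was measured.

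In the core particle, 0 of 11 measured genes passed in limma, and 0 had an unadjusted p under 0.05. For each of the 3 peptidases the interval of the difference held 0. Psmb5, the chymotrypsin-like peptidase, had log2 intensities of 9.29, 10.37 and 9.44 in Tg 1, Tg 2 and Tg 3, and of 9.81, 9.28 and 9.48 in WT 1, WT 2 and WT 3. The groups overlapped, with Tg 2 high, and the difference was 0.17 ± 0.31 (SE), a fold between 0.687 and 1.85 by the 95% interval. Without Tg 2 it was -0.16.

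Psmb6, the caspase-like peptidase, had log2 intensities of 11.94, 11.68 and 12.02 in Tg 1, Tg 2 and Tg 3, and of 12.10, 11.88 and 12.04 in WT 1, WT 2 and WT 3. These overlapped, and the difference was -0.13 ± 0.14 (SE), a fold between 0.726 and 1.15. Psmb7, the trypsin-like peptidase, had 11.82, 12.02 and 12.30 in Tg 1, Tg 2 and Tg 3, and 11.97, 11.89 and 11.94 in WT 1, WT 2 and WT 3. Its groups overlapped too, with a difference of 0.12 ± 0.15 (SE), a fold between 0.851 and 1.38, and its other 3 probes had differences below 0, the lowest -0.08. The adjusted p of the 3 peptidases was 0.81, 0.67 and 0.73 in limma.

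The non-catalytic beta subunits had small positive differences. Psmb4 had log2 intensities of 13.36, 13.62 and 13.17 in Tg 1, Tg 2 and Tg 3, and of 13.18, 13.18 and 13.16 in WT 1, WT 2 and WT 3. The WT values lay close together with Tg 3 among them, with a difference of 0.21 ± 0.13 (SE; adjusted p = 0.44, limma). Psmb1 had 12.21, 12.06 and 12.49 in Tg 1, Tg 2 and Tg 3, and 12.21, 12.04 and 11.92 in WT 1, WT 2 and WT 3, which overlapped (difference 0.20 ± 0.15, SE; adjusted p = 0.54, limma). Psmb2 and Psmb3 had differences of 0.08 and 0.12. Of 8 alpha subunit genes, 4 were measured: Psma2, Psma4, Psma5 and Psma7 had differences of -0.01, -0.11, -0.17 and 0.09. Psma4 and Psma2 were lowest in Tg 2, and without that array their differences were 0.20 and 0.17.

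The base assembly chaperones did not share a direction, and 0 of 3 passed in limma, with 0 at an unadjusted p under 0.05. Psmd10 (gankyrin) had log2 intensities of 9.96, 9.99 and 10.28 in Tg 1, Tg 2 and Tg 3, and of 9.90, 9.85 and 9.84 in WT 1, WT 2 and WT 3. Every Tg value lay above every WT value, by little, and the difference was 0.21 ± 0.17 (SE; adjusted p = 0.55, limma). Psmd5 and Psmd9 had differences of -0.42 ± 0.31 and -0.10 ± 0.32 (SE), with overlapping groups. Without Tg 3 the difference of Psmd5 was -0.19, and without WT 1 it was -0.65. Psmc3ip, which is not a subunit, had a difference of -0.34 ± 0.17 (SE; adjusted p = 0.32, limma), with each Tg value below each WT value.

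Genes with several tested probes allowed the direction to be compared within a gene. Of 16 such genes, 13 had the same sign at every tested probe, among them 9 of 11 regulatory genes, 2 of 3 core genes and both chaperones. The 3 with mixed signs were Psmb7, Psmd6 and Psmd7. Of the 29 regulatory probes 25 were negative, with a median of -0.34, and of the 16 core probes 9 were positive, with a median of 0.05. Probes of 1 gene share their RNA sample and are not replicates of the condition. When each probe was tested on its own, the brighter Psmd2 probe was the 1 called among 52 (adjusted p = 0.034, limma), against 1.38% of all 18597 tested probes called lower and 3.3% called in either direction.

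**Figure D4:**
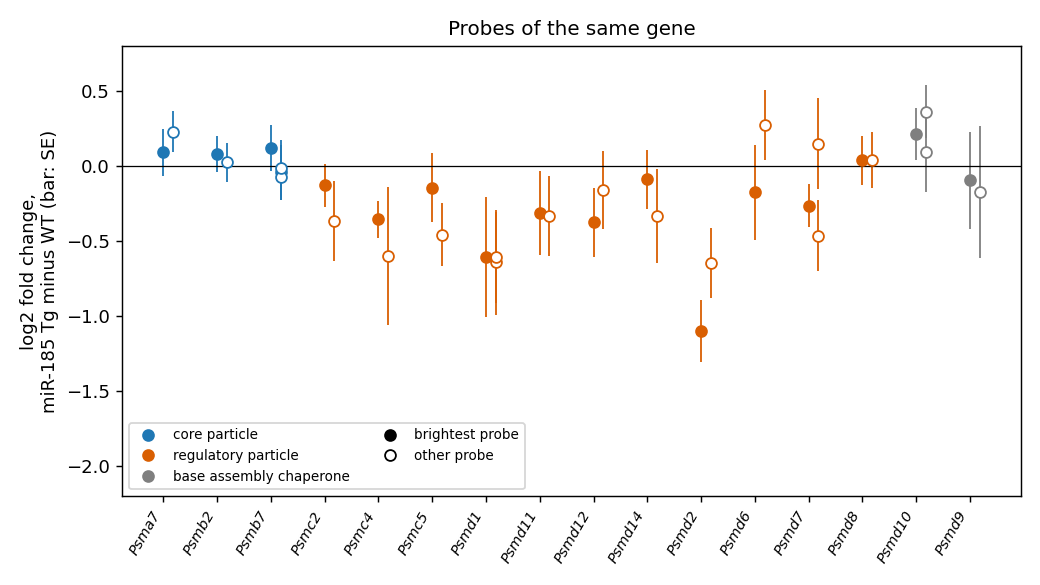
Log2 fold change (miR-185 Tg minus WT, vertical axis, bar SE) of each tested probe of the 16 members with more than 1, filled for the brightest probe. All probes of a gene lie on 1 side of 0 for 13 genes; Psmb7, Psmd6 and Psmd7 have probes on both sides.

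Replicates of the members were close to each other in WT cells and farther apart in Tg cells. The median SD between replicates of the 31 members was 0.22 in Tg cells and 0.11 in WT cells on the log2 scale, against 0.33 in Tg cells and 0.15 in WT cells over all genes tested. By particle, the median Tg SD was 0.23 for the core and 0.22 for the regulatory genes, against WT values of 0.11 for the core and 0.10 for the regulatory genes.

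The immunoproteasome subunits, which take the place of the constitutive peptidases, were set beside them. Psmb9, which replaces Psmb6, rose by 1.495 ± 0.14 on the log2 scale, or 2.82-fold (SE; adjusted p = 0.0062, limma), while the difference of Psmb6 was -0.13. Without WT 1 and without WT 3 the adjusted p of Psmb9 was 0.0511 and 0.0518, with differences of 1.53 and 1.45. Psmb10, which replaces Psmb7, had 12.06, 12.27 and 11.86 in Tg 1, Tg 2 and Tg 3, and 11.39, 11.56 and 11.44 in WT 1, WT 2 and WT 3. These did not overlap, and the difference of 0.60 ± 0.15 did not pass (SE; adjusted p = 0.067, limma). It passed in 5 alternatives at the same threshold: without Tg 2 (0.0377), without Tg 3 (0.038), in the authors' values (0.035), with the mean of its probes (0.0317) and with array weights (0.00054). Over all 12426 genes, 1709 were called without Tg 2 and 4472 with array weights, against 526 in the main fit. Psmb8, which replaces Psmb5, had a difference of 0.33 ± 0.45 (SE), with Tg 3 at 12.11 and the other Tg arrays at 13.78 and 13.91. With 1 array left out, the difference of Psmb8 ran from 0.0071 without Tg 2 to 0.91 without Tg 3. The thymoproteasome gene Psmb11 was not detected.

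**Figure D5:**
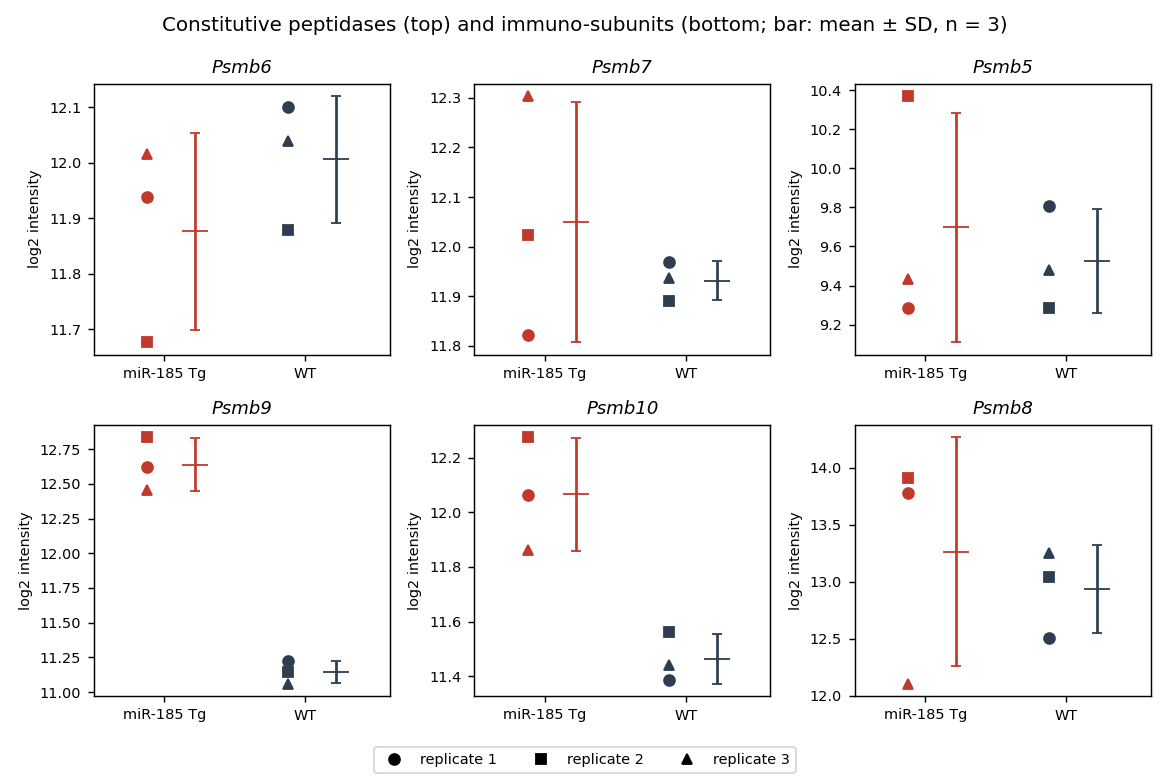
Log2 intensity (vertical axis, a separate scale in each panel) of the constitutive peptidase genes (top) and of the immuno-subunit that replaces each (bottom), miR-185 Tg left and WT right, with a symbol per replicate and the mean ± SD (n = 3). The groups overlap for Psmb5, Psmb6, Psmb7 and Psmb8, and do not overlap for Psmb9 and Psmb10.

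Other genes of the ubiquitin-proteasome pathway were read from lists drawn up with earlier results of these data known. Of 36 measured genes, 1 rose (Psmb9) and 2 fell (Nfyc and Rps27a), against 2.55% of all genes called higher and 1.68% called lower. The median difference of the 36 was -0.19, and 14 had all Tg values below all WT values (38.9%, against 13.2% of all genes). Among activators and the inhibitor 0 of 5 passed in limma, with 1 higher and 1 lower at an unadjusted p under 0.05. At that p, 11.1% of all genes were higher and 8.89% lower. Psme1, a subunit of the interferon-induced activator, had a difference of 0.60 ± 0.15 (SE; adjusted p = 0.074, limma). Psme3, the nuclear activator, had -0.48 ± 0.20, and Psmf1, the inhibitor, had -0.25 ± 0.21 (SE). Psme2 and Psme4 had 0.02 ± 0.20 and -0.50 ± 0.50 (SE), with overlapping groups.

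Of the core assembly chaperones 0 of 4 passed in limma, with 0 at an unadjusted p under 0.05. All 4 were negative, against 50.1% of all genes, with -0.27 for Psmg2, -0.26 for Psmg3 and -0.12 for Pomp. Of 13 associated factors 0 passed in limma, and 12 were negative. At an unadjusted p under 0.05, 3 were lower, against 8.89% of all genes. The 3 were the shuttle factor gene Ubqln4 (-0.81 ± 0.22), the ubiquitin ligase gene Ube3c (-0.63 ± 0.22) and Vcp, the segregase that extracts ubiquitinated proteins (-0.32 ± 0.13, all SE), with adjusted p = 0.088, 0.15 and 0.21.

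Among 7 transcription factor and Ddi2 genes, Nfyc, a subunit of NF-Y, fell by 0.87 ± 0.17 on the log2 scale (SE; adjusted p = 0.035, limma). Its log2 intensities were 10.81, 11.35 and 10.91 in Tg 1, Tg 2 and Tg 3, and 11.96, 11.87 and 11.87 in WT 1, WT 2 and WT 3, without overlap. Nfyb, which encodes another NF-Y subunit, had a difference of 0.31 ± 0.19 (SE). Ddi2, the protease that activates NFE2L1, had -0.99 ± 0.27 (SE; adjusted p = 0.090, limma) and Nfe2l2 had -0.50 ± 0.21 (SE). Both probes were dim, with Ddi2 detected on 2 of the 3 Tg arrays, and these differences shrank to -0.33 for Ddi2 without background correction and to -0.11 for Nfe2l2 in the authors' values. The call of Nfyc was lost in 11 of 21 alternatives, among them without Tg 1, Tg 3, WT 1, WT 2 or WT 3 (adjusted p = 0.102, 0.0508, 0.16, 0.155 and 0.175, limma) and with median scaling (0.189).

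Of 4 measured ubiquitin and E1 enzyme genes, Rps27a, which encodes a ubiquitin fused to a ribosomal protein, fell by 0.70 ± 0.15 (SE; adjusted p = 0.046, limma). Its log2 intensities were 11.27, 11.18 and 11.61 in Tg 1, Tg 2 and Tg 3, and 12.09, 11.99 and 12.08 in WT 1, WT 2 and WT 3. Its call was lost in 13 of 21 alternatives, among them without Tg 1, WT 1, WT 2 or WT 3 (adjusted p = 0.122, 0.184, 0.18 and 0.237, limma) and with median scaling (0.152) or cyclic loess (0.0578). The ubiquitin gene Ubb had a difference of 0.08 ± 0.10 (SE). Uba1, the main ubiquitin-activating enzyme, had 0.10 ± 0.22 at its brightest probe (SE), and -0.62 as the mean of its probes.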

How the data were processed

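Values were the mean bead intensity per probe, deposited by the authors without a log or normalization (GenomeStudio 1.9.0, per the file headers). The detection score, a fraction from 0 to 1 per the file headers, gave the detection p-value as 1 minus the score, and the deposited bead SD and bead number (other) gave the bead error. Background subtraction is not stated. The deposited series values match the log2 of the authors' gene-averaged intensity table (largest difference 6.3e-07). Another 24 deposited columns of per-array values were not used.

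Normexp with parameters taken from detection p-values and an offset of 16, then quantile normalization, was run in limma 3.58.1 (R 4.3.3). The filter (detection p below 0.05 on 3 or more arrays) kept 18597 of 45281 probes. A gene was represented by its brightest kept probe, giving 12426 genes. The fit was lmFit, then eBayes (trend), and the threshold 0.05 after Benjamini-Hochberg adjustment. By the GRCm38.p6 table, 15991 names were RefSeq symbols and 5826 unique synonyms. Precision is limited by there being 6 arrays. On simulated data (12426 genes, 200 changed, 5 draws) the fit found 28.4% of genes changed by 1 and 80.2% of those changed by 2 on the log2 scale, with 4.2 false calls per draw on average.

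The members, lists and named genes were chosen with earlier results of these data known. Named array by array were the called members, the 3 peptidases and the 3 members with the largest difference in each direction; of each related list, the called genes and up to 3 others with the smallest unadjusted p. A gene that rule names is not reported here. The further genes with values, such as Psmc4, Psme2 and Psme4, were chosen after their values were seen. Alternatives changed background, offset, scaling, filter, variance model, array weights, replicate block, probe rule, threshold and arrays.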

Additional observations from a re-analysis of the deposited data

How the results depend on the processing

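The regulatory median was negative (-0.34 to -0.20), and the regulatory minus core difference was negative (-0.44 to -0.24, main value -0.38), in all 22 alternatives. That difference was -0.24 with array weights and -0.44 to -0.30 with 1 array left out. The core median was 0.18 with cyclic loess and -0.01 to 0.15 with 1 array left out. The members called higher were 0 in all 22 alternatives. The members called lower were 0 without a filter on dim probes (more genes tested), at an adjusted p under 0.01, and with WT 2 and WT 3 averaged. They were 8 with array weights (Psmc3ip, Psmc4, Psmd2, Psmd5, Psmd6, Psmd9, Psmd11 and Psmd13), where 4472 of 12426 genes were called in either direction. With 1 array left out they were 0 to 2, and they were 2 without Tg 2, where 1709 genes were called. Genes called over all genes, 526, became 310 with median scaling, 312 without a filter, 4472 with array weights, 61 at 0.01, 1049 at 0.10, 36 with WT 2 and WT 3 averaged and 1 to 1709 with 1 array left out. With the replicate number as a block, 264 genes and 0 members were called, and the adjusted p of Psmd2 was 0.083. The labels do not say that a number marks a shared animal or day. The deviations of same-numbered arrays from their group means correlated at -0.25, 0.11 and -0.22. Those of differently numbered arrays correlated at -0.27 to 0.32. With 3 arrays per group these values cannot tell whether the numbers mark pairs. The cause of these shifts was not tested, except where fewer samples or more genes enter by construction.

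Signs of small differences turned. Psma2 was 0.0916 with median scaling, 0.12 with cyclic loess, 0.0339 in the authors' values and 0.0728 with array weights. With array weights Psma4 was 0.0442, Psmb5 -0.11, Psmb7 -0.0515, Psmd4 0.0327, Psmd14 0.0986 and Psmd8 -0.16. With the mean of the probes Psmb7 was -0.004, Psmd6 0.0491 and Uba1 -0.62. With 1 array left out, Psma2 ran from -0.16 to 0.17, Psma4 from -0.33 to 0.20, Psma7 from -0.0417 to 0.17, Psmb5 from -0.16 to 0.38, Psmb7 from -0.0095 to 0.23 and Psmc5 from -0.33 to 0.0164. Psmd6 ran from -0.47 to 0.0677, Psmd8 from -0.0567 to 0.14, Psmd9 from -0.33 to 0.22, Psmd14 from -0.16 to 0.0401 and Uba1 from -0.16 to 0.27. Dim probes such as those of Psmd2, Psmc6, Ddi2 and Nfe2l2 lie near the background, and the size of their differences varied with the setting. Over the alternatives Psmd2 ran from -1.18 to -0.37 and Psmc6 from -0.39 to -0.07. Ddi2 ran from -1.20 to -0.33 and Nfe2l2 from -0.64 to -0.11.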
